A study of Mus musculus with 4 samples.

Results

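The 36 genes described here mark macrophages and monocytes: markers of tissue-resident and of blood-derived cells, the growth factors and receptors that keep them alive, and the transcription factors that make them. They were taken by symbol from the 54752 genes of the count table, and all 36 were found. The tissue was mouse abdominal aorta, sequenced as whole aortic graft 4 weeks after transplantation. There were 2 libraries of ALLO grafts, allografts in chronic rejection by the title of the series, and 2 of ISO grafts, whose name is not explained in the labels (n = 2 per group throughout). The labels give no strain, age or sex, name no treatment, and are silent on whether each library was made from its own animal. The p-values therefore reflect the spread between these samples alone, which may be technical in ALLO. The ISO libraries differed in sex-linked genes, as given below, and were not repeats of the same tissue.

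The artery wall holds macrophages of its own, mainly in the adventitia. Such resident cells are seeded in part before birth, can renew themselves locally, and carry scavenger and clearance receptors such as CD163, TIM-4, folate receptor beta and MERTK. Inflammation brings in monocytes from the blood, which in mice carry Ly6C and become macrophages in the tissue. Both kinds of cell depend on the receptor CSF1R, whose ligands CSF1 and IL-34 are made mostly by other cells of the tissue. PU.1, C/EBP and IRF factors switch on the myeloid genes. None of these markers is strict: several are shared with other leukocytes or with cells of the vessel wall.

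The libraries held 18978538 and 20194854 counts in ALLO and 18488823 and 17532344 in ISO. ISO replicate 1 had 10647 counts of Xist and none of the Y-linked gene Ddx3y, whereas ISO replicate 2 had 8 and 2312. The ALLO libraries had 6 and 0 counts of Xist and 2287 and 2105 of Ddx3y, so ISO replicate 1 stood apart in sex-linked genes. ISO replicate 1 also had the higher level for 31 of the 36 genes, against 54.3% of all genes tested. The immunoglobulin share was 11.2% and 3.08% in ALLO, against 0.0699% and 0.00136% in ISO. The smooth muscle markers that define the aorta were present in all libraries, with 6 of 6 lower in ALLO and summed levels of 1117 to 2312 CPM (counts scaled to library size and composition with the TMM method) in ALLO and 27170 to 27449 in ISO. RNA of whole tissue was measured, so fewer cells of a type and less RNA per cell cannot be told apart.

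All 5 monocyte and macrophage genes and 7 of the 8 MS4A genes rose in ALLO grafts, each by more than 10-fold, and 1 of the 7 genes tied to resident macrophages rose. The difference between these groups of genes was not tested. All 36 genes passed the filter on low counts. Of them, 22 rose, 1 fell and 13 did not pass a Benjamini-Hochberg adjusted p of 0.05 in edgeR's quasi-likelihood test. Of all 16498 genes tested, 33.1% were called, 18.4% higher and 14.8% lower. The median log2 change (ALLO over ISO) was 3.67 over the 36 genes and 0.03 over all genes tested. Both ALLO libraries lay above both ISO libraries for 26 of the 36 genes (37.1% of all genes tested) and below both for 5 (35.4%). The count of genes that rose was 25 or 22 when ISO replicate 1 or 2 was left out, and 20 or 21 when ALLO replicate 1 or 2 was. In such fits the lone library of a group is assumed to vary like the libraries of the other group.

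**Figure D1:**
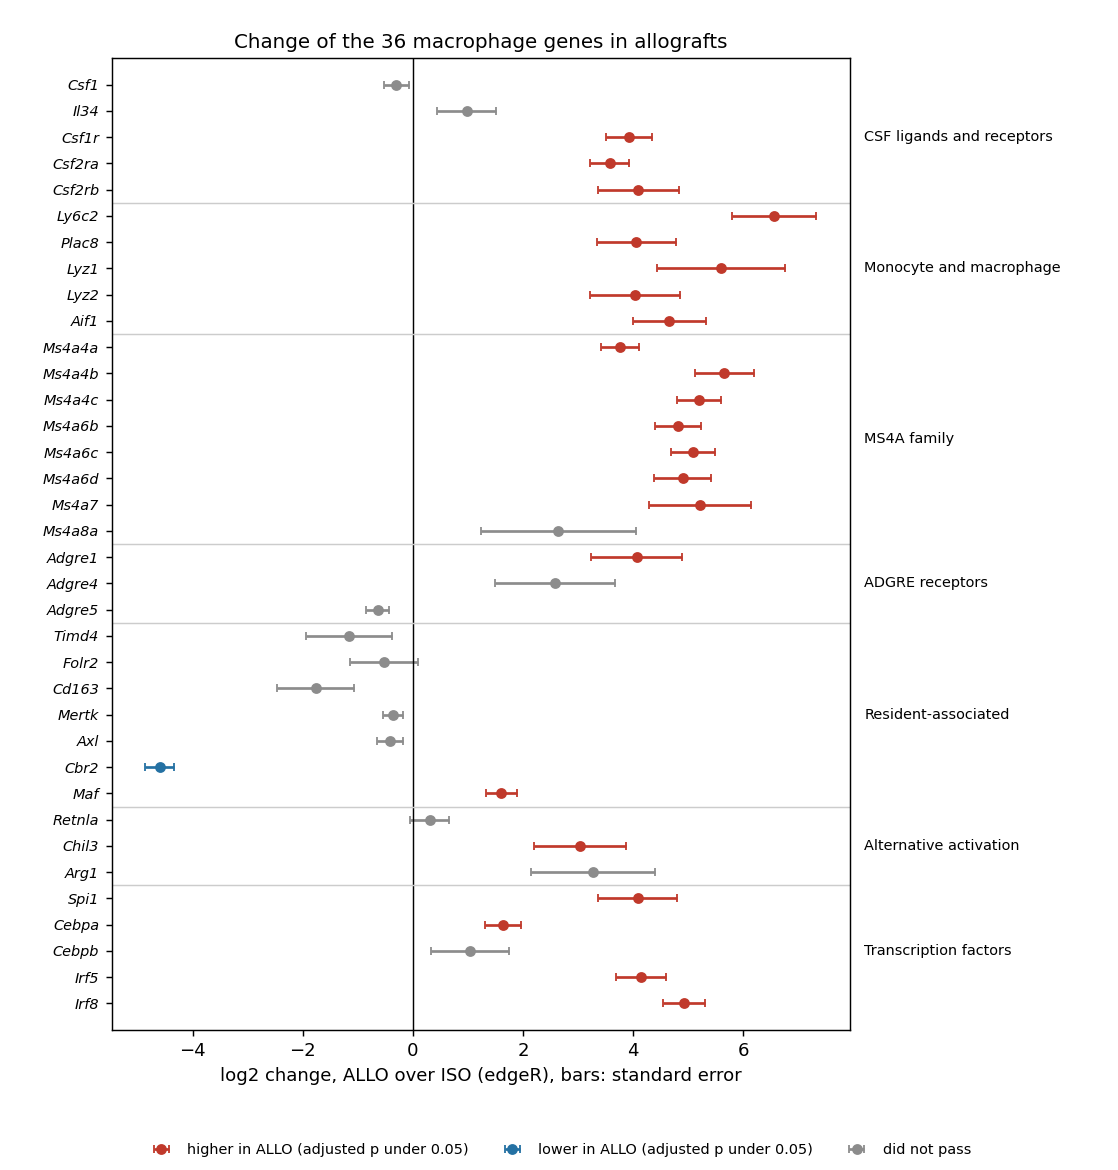
Log2 change of each of the 36 genes, ALLO over ISO, with a standard error (bars) derived from edgeR's F statistic, grouped by role and coloured by call. The MS4A family and the monocyte genes lie to the right of 0, 6 of the 7 resident-associated genes to the left, and Cbr2 is the sole gene called lower.

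The receptors for colony-stimulating factors rose, and Csf1 and Il34, the ligands of CSF1R, did not pass. Csf2, the gene of GM-CSF, had 3 and 9 counts in ALLO and 0 in both ISO libraries, and was not tested. Csf1r, the receptor that macrophages need to survive (ENSMUSG00000024621.15, chromosome 18, 61105572 to 61132149, plus strand, mm10), had 851 and 806 CPM in the ALLO libraries and 73.2 and 36.3 CPM in the ISO libraries. Both ALLO libraries were far above both ISO libraries, a 15.1-fold difference (log2 change 3.92 ± 0.42, SE, edgeR adjusted p = 0.00481). An opposite-strand gene, Hmgxb3, shares 17.8% of the exonic bases of Csf1r, and without a known strand setting reads of the pair cannot be told apart. Csf2ra, the ligand-binding chain of the GM-CSF receptor (ENSMUSG00000059326.6, chromosome 19, 61224402 to 61228418), was 11.9-fold higher, at 128 and 210 CPM in ALLO and 16.7 and 11.7 CPM in ISO (edgeR adjusted p = 0.00431).

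Csf2rb, the signalling chain shared by the receptors for GM-CSF, IL-3 and IL-5, had 261 and 261 CPM in ALLO and 24.8 and 5.67 CPM in ISO. The ALLO libraries were nearly equal and the ISO libraries differed 4.38-fold, so its 17.1-fold rise (edgeR adjusted p = 0.0146) was 45.5-fold when ISO replicate 1 was left out and 10.3-fold when ISO replicate 2 was. Csf2rb shares 12.3% of its 50-base words with the neighbouring copy Csf2rb2, and reads of the pair may have been split or lost. Csf2rb2 itself was higher as well, by 4.48 ± 0.71 on the log2 scale (edgeR adjusted p = 0.0108).

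Csf1, the main ligand of CSF1R (ENSMUSG00000014599.10, chromosome 3, 107741048 to 107760469), had 107 and 126 CPM in ALLO and 125 and 163 CPM in ISO. The groups overlapped, with a log2 change of -0.30 ± 0.23 (edgeR adjusted p = 0.353). Il34, the other ligand, was low throughout, at 4.01 and 5.40 CPM in ALLO and 3.27 and 1.51 CPM in ISO (log2 change 0.97 ± 0.53, edgeR adjusted p = 0.222). Per kilobase of exon, the level of Csf1 relative to that of Csf1r was 0.117 and 0.144 in the ALLO libraries and 1.58 and 4.15 in the ISO libraries. Csf1 transcripts were thus fewer than Csf1r transcripts in every ALLO library and more abundant in every ISO library. Il34 was below Csf1r in every library, at 1.67 and 0.770 CPM per kilobase in ISO.

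**Figure D2:**
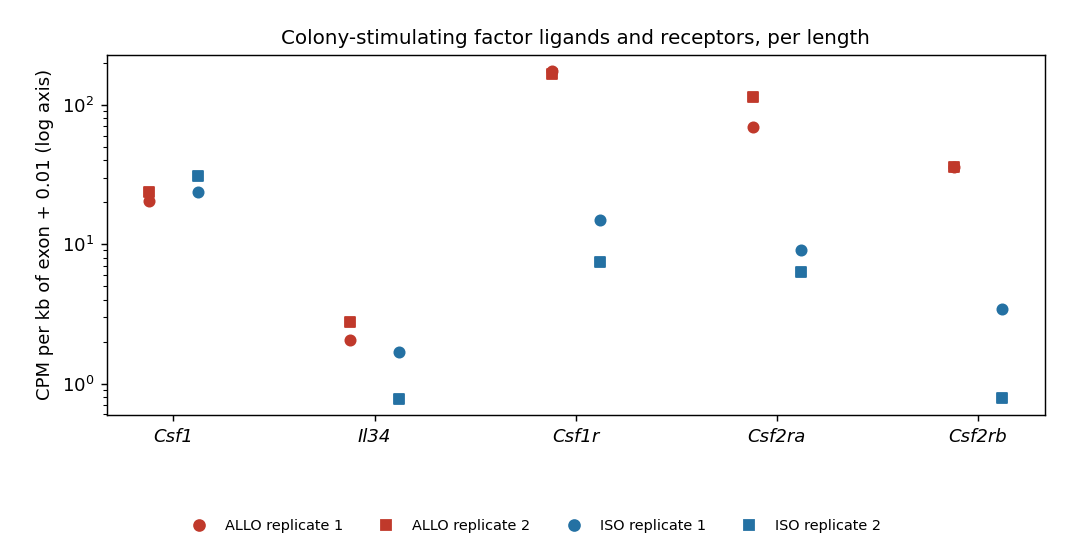
Level of the CSF ligands and receptors per kilobase of exon (log axis) in each library, ALLO left of ISO for each gene. Csf1r lies at 174 and 165 CPM per kilobase in ALLO and at 15.0 and 7.44 in ISO, whereas Csf1 lies between 20.3 and 30.8 in all 4 libraries.

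Of 15 other genes of colony-stimulating factor signalling, 13 could be tested, of which 12 rose and none fell (median log2 change 3.53). Those with the smallest p were the Src-family kinase gene Fgr (14.0-fold), the lipid phosphatase gene Inpp5d (17.4-fold, 29.3-fold without ISO replicate 1) and the tyrosine phosphatase gene Ptpn6 (21.6-fold, 43.1-fold when ISO replicate 1 was left out and 14.2-fold when ISO replicate 2 was). Their edgeR adjusted p values were 0.00431, 0.00532 and 0.00670. These kinases and phosphatases are also expressed by other leukocytes.

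All 5 monocyte and macrophage genes rose. Ly6c2, the Ly6C antigen of inflammatory monocytes, which memory T cells also carry (ENSMUSG00000022584.14, chromosome 15, 75108158 to 75111970, minus strand), had 347 and 205 CPM in the ALLO libraries and 4.62 and 1.21 CPM in the ISO libraries. In counts, this was 6758 and 4508 in ALLO and 79 and 20 in ISO. The groups lay far apart, and at 94.3-fold (log2 change 6.56 ± 0.76, edgeR adjusted p = 0.00544) it had the largest log2 change of the 36 genes. The fold was 225 when ISO replicate 1 was left out and 58.7 when ISO replicate 2 was. Its neighbour Ly6c1, which endothelium expresses, holds 13.9% of the 50-base words of Ly6c2 and was itself at 78.9 and 84.1 CPM in ALLO and 156 and 105 CPM in ISO.

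RefSeq promoter windows (250 bases before to 50 after a start, GRCm38.p6) were at hand for 27 of the 36 genes. The window of Ly6c2 is shown because it is the gene with the largest change and holds the PU.1 motif GAGGAAGT at 2 places. Capitals mark the motif, searched on both strands (chr15:75111888-75112187, minus strand).
Ly6c2: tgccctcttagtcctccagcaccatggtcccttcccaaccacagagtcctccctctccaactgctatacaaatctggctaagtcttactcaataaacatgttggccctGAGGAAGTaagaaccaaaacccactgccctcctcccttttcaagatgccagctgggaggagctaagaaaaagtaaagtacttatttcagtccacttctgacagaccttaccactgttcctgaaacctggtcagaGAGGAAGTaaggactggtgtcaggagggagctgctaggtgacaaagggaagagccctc
This motif was present for 3 of the 27 genes (Adgre4, Ly6c2 and Retnla) and for 3.69% of all 27025 genes with a window. The C/EBP motif TTGCNNCAA was found for 0 of the 27 (2.38% of all genes), and a pair of interferon-response half-sites for 1, Aif1 (3.99%). A match describes the letters of the window and says nothing of binding.

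Lyz2, the lysozyme of macrophages and granulocytes, had the most counts of the 36 genes in ALLO, at 5461 and 3654 CPM in ALLO and 451 and 104 CPM in ISO, where Axl had more. Its 16.4-fold rise (edgeR adjusted p = 0.0202) was 43.4-fold when ISO replicate 1 was left out and 9.95-fold when ISO replicate 2 was, and it lost its call without ALLO replicate 1 (13.6-fold, edgeR adjusted p = 0.0522). Lyz1, the gene copy next to it that is best known from Paneth cells of the gut, had 255 and 36.5 CPM in ALLO and 4.50 and 1.51 CPM in ISO. The ALLO libraries differed 6.99-fold, and the rise of 48.2-fold (edgeR adjusted p = 0.0213) was 94.9-fold or 31.7-fold when ISO replicate 1 or 2 was left out, and 12.4-fold or 85.0-fold when ALLO replicate 1 or 2 was. Per kilobase, Lyz2 exceeded Lyz1 by 20.6 and 96.2 times in ALLO and by 96.1 and 66.1 times in ISO, so ALLO replicate 1 stood apart from the other 3 libraries.

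The lysozyme copies are 95.1% identical over their coding sequences of 447 bases, and 16.1% of the 50-base words of Lyz1 also occur in Lyz2. Reads in those words could have been assigned to either gene or dropped, and the Lyz1 values are uncertain for that reason. Their promoter windows are shown because they let the copies be compared outside the coding sequence. They are 82.8% identical, and capitals mark the 44 bases in each that differ from the other or have no partner (RefSeq, GRCm38.p6, chr10:117292819-117293118 for Lyz1 and chr10:117282223-117282522 for Lyz2, both on the minus strand).
Lyz1: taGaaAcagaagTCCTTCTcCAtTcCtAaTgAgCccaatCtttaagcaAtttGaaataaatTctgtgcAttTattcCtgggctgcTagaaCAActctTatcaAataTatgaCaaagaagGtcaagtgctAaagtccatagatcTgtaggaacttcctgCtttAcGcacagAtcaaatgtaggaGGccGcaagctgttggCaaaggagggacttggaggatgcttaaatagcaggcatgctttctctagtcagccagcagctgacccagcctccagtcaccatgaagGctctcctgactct
Lyz2: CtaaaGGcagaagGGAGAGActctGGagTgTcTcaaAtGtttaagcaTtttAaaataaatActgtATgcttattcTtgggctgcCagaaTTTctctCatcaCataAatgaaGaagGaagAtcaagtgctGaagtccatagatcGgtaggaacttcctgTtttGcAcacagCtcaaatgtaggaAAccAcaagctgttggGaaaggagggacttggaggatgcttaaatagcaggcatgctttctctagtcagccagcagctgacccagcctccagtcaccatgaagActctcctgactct
In these windows most differences fall in the first part and the bases around the start are nearly the same.

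Plac8, a small protein abundant in Ly6C-high monocytes and also made by plasmacytoid dendritic and other lymphoid cells, had 167 and 145 CPM in ALLO and 15.3 and 3.50 CPM in ISO. It was 16.6-fold higher (edgeR adjusted p = 0.0141), 44.1-fold when ISO replicate 1 was left out and 10.1-fold when ISO replicate 2 was. Aif1, which encodes the actin-bundling protein IBA1 of macrophages, had 82.9 and 73.7 CPM in ALLO and 4.97 and 1.21 CPM in ISO, 25.2-fold higher (edgeR adjusted p = 0.00830, 63.9-fold when ISO replicate 1 was left out and 15.5-fold when ISO replicate 2 was). Both genes were uniform in ALLO and over 4 times as high in the first ISO library as in the second.

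**Figure D3:**
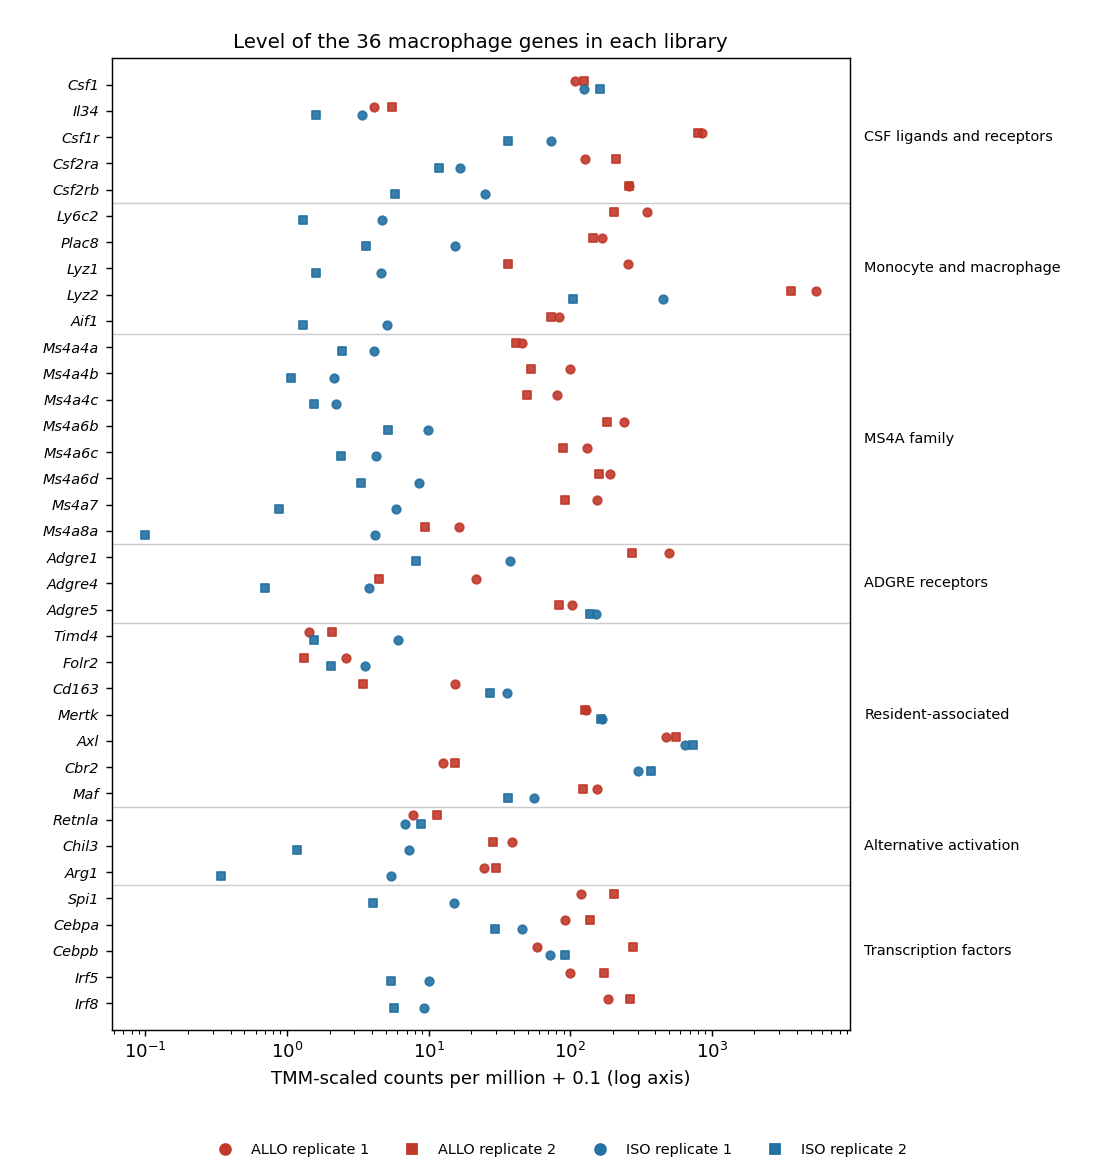
Level of each gene in each library (CPM + 0.1, log axis), ALLO drawn above ISO in each row. Ly6c2 lies at 347 and 205 CPM in ALLO and at 4.62 and 1.21 in ISO, Cbr2 at 12.5 and 15.2 in ALLO and at 301 and 370 in ISO, and Csf1, Timd4, Folr2, Retnla and Cebpb overlap between groups.

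The MS4A genes encode tetraspanning membrane proteins related to CD20, and most of the mouse 4A and 6 subfamilies are expressed by myeloid cells. The 8 members measured lie in a cluster on chromosome 19 (11067471 to 11604849, mm10). Of these, 7 rose and Ms4a8a did not pass, and both ALLO libraries were above both ISO libraries for all 8. Summed, the 8 genes reached 959 and 675 CPM in ALLO and 40.6 and 16.2 CPM in ISO, and their median log2 change was 5.00.

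Ms4a4b, known in the mouse from T cells, had 99.5 and 53.2 CPM in ALLO and 2.05 and 0.966 CPM in ISO. It was 50.4-fold higher (log2 change 5.66 ± 0.53, edgeR adjusted p = 0.00395), 77.8-fold without ISO replicate 1. The 6 T cell markers rose as well, with summed levels of 186 to 216 CPM in ALLO and 2.17 to 7.37 CPM in ISO, and Cd3e, Cd3d and Cd3g had 0 counts in ISO replicate 2. The part of T cells in the Ms4a4b value was not tested. Ms4a4c, its close copy with 91.8% coding identity, was 36.6-fold higher (81.3 and 49.4 CPM in ALLO, 2.10 and 1.45 CPM in ISO, edgeR adjusted p = 0.00313). Ms4a4a, which in humans associates with macrophages and the receptor dectin-1, rose the least of the 7, 13.6-fold, at 45.9 and 41.1 CPM in ALLO and 4.03 and 2.35 CPM in ISO (edgeR adjusted p = 0.00385).

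The Ms4a6 genes moved by nearly equal amounts. Ms4a6b had 240 and 181 CPM in ALLO and 9.88 and 5.07 CPM in ISO, 28.1-fold higher (edgeR adjusted p = 0.00359). Ms4a6c was 34.1-fold higher (131 and 89.2 CPM in ALLO, 4.15 and 2.29 CPM in ISO, edgeR adjusted p = 0.00321), but 53.1% of its exonic bases overlap BE692007 on the opposite strand and its value is uncertain. Ms4a6d was 29.9-fold higher (191 and 161 CPM in ALLO, 8.48 and 3.26 CPM in ISO, edgeR adjusted p = 0.00477), 53.4-fold without ISO replicate 1. Coding identity between these 3 genes ranged from 70.3% to 81.4%. At most 5.85% of the 50-base words of any of them occurred in another of the 3. Over all other genes, the share for Ms4a6c was 10.5%.

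Ms4a7, a gene of mature macrophages including those at the borders of the brain, had 154 and 91.3 CPM in ALLO and 5.79 and 0.785 CPM in ISO. The ISO libraries differed 7.38-fold, and the rise of 37.1-fold (edgeR adjusted p = 0.0142) was 153-fold when ISO replicate 1 was left out and 20.8-fold when ISO replicate 2 was. Ms4a8a had 317 and 207 counts in ALLO, 70 in ISO replicate 1 and 0 in ISO replicate 2 (log2 change 2.64 ± 1.41, edgeR adjusted p = 0.213). On a floor of 6 counts, its ALLO mean was at least 35.5-fold above ISO replicate 2, whereas without ISO replicate 2 the fold was 3.08 (edgeR adjusted p = 0.0678). Without ISO replicate 1 it passed as higher (edgeR adjusted p = 0.000327). Per kilobase, Ms4a6d was the most abundant of the 8 in each ALLO library, at 110 and 92.7 CPM per kilobase.

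**Figure D4:**
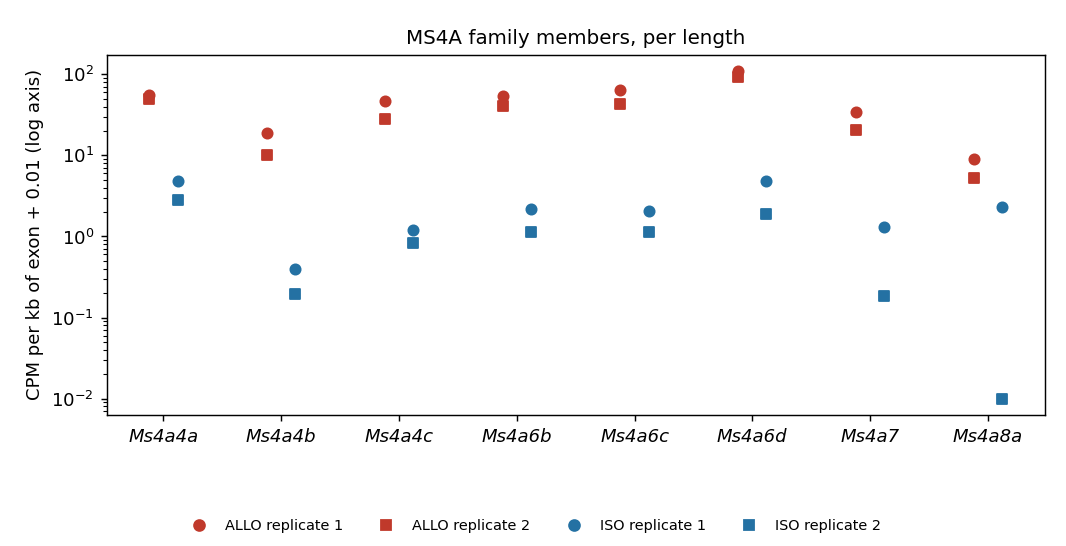
Level of the 8 MS4A genes per kilobase of exon (CPM per kilobase + 0.01, log axis) in each library, ALLO left of ISO for each gene. Every ALLO point lies above the ISO points of its gene, and the lowest point is Ms4a8a in ISO replicate 2, with 0 counts.

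The ADGRE genes encode adhesion G protein-coupled receptors with EGF domains. Adgre1, the F4/80 antigen by which mouse macrophages are recognised, had 497 and 271 CPM in ALLO and 37.8 and 8.09 CPM in ISO. It was 16.7-fold higher (edgeR adjusted p = 0.0203), 47.0-fold when ISO replicate 1 was left out and 10.0-fold when ISO replicate 2 was, and it lost its call without ALLO replicate 1 (edgeR adjusted p = 0.0562). Adgre4, found on monocytes and some macrophages, had 21.5 and 4.36 CPM in ALLO and 3.68 and 0.604 CPM in ISO (log2 change 2.59 ± 1.09, edgeR adjusted p = 0.131). It passed without ISO replicate 1 (21.0-fold, edgeR adjusted p = 0.0160), but was 3.45-fold higher without ISO replicate 2, and 2.09-fold or 10.1-fold when ALLO replicate 1 or 2 was left out (edgeR adjusted p = 0.194, 0.520 and 0.0731). Adgre5, the CD97 antigen of most leukocytes and of smooth muscle, had 103 and 83.2 CPM in ALLO and 153 and 137 CPM in ISO. Both ALLO libraries were lower, but the difference did not pass (log2 change -0.64 ± 0.21, edgeR adjusted p = 0.0689). Opposite-strand exons share 23.8% of the exonic bases of Adgre5 (overlapping genes Ddx39 and Mir1668), and its values are uncertain.

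Of the 7 genes tied to resident macrophages, 1 was higher, 1 was lower and 5 did not pass, a share of calls near the 33.1% of all genes tested. Their median log2 change was -0.53. Timd4, the phosphatidylserine receptor of long-lived resident macrophages, had 26 and 44 counts in ALLO and 103 and 24 counts in ISO. The groups overlapped and ISO replicate 1 alone was high, so the log2 change of -1.16 ± 0.78 (edgeR adjusted p = 0.308) was 0.19 without ISO replicate 1. Folr2, the folate receptor of perivascular macrophages, was as scarce, at 2.52 and 1.23 CPM in ALLO and 3.45 and 1.93 CPM in ISO (log2 change -0.53 ± 0.61, edgeR adjusted p = 0.554). An opposite-strand gene, Gm10602, shares 63.1% of its exonic bases, and its values are uncertain.

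Cd163, the scavenger receptor for haemoglobin and haptoglobin (ENSMUSG00000008845.9, chromosome 6, 124304656 to 124330527), had 15.2 and 3.36 CPM in ALLO and 35.96 and 27.0 CPM in ISO. Both ALLO libraries were below both ISO libraries but differed 4.53-fold between themselves, and the log2 change of -1.76 ± 0.70 did not pass (edgeR adjusted p = 0.116). Without ALLO replicate 1 it passed as lower (log2 change -3.19, 9.14-fold, edgeR adjusted p = 0.0140), and without ALLO replicate 2 it was 2.06-fold lower (edgeR adjusted p = 0.0671). It also passed as lower with the DESeq2 Wald test, limma-voom and no filter, but not in edgeR with DESeq2 size factors (edgeR adjusted p = 0.115). Per kilobase, Cd163 relative to Csf1r stood at 0.0160 and 0.00373 in ALLO and at 0.439 and 0.666 in ISO.

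Cbr2, a carbonyl reductase that marks some resident macrophages of mice and is also found in other cells, such as those of the lung airway (ENSMUSG00000025150.10, chromosome 11, 120729489 to 120732114, minus strand), had 12.5 and 15.2 CPM in ALLO and 301 and 370 CPM in ISO. The libraries of each group were close, and the gene was 24.2-fold lower in ALLO (log2 change -4.60 ± 0.26, edgeR adjusted p = 0.00216). The range over 13 other settings was -4.75 to -4.41. In ISO its level per kilobase was 15.1 and 37.5 times that of Csf1r, against 0.0540 and 0.0695 times in ALLO. The smooth muscle markers fell with it, with a median log2 change of -4.11, and the part of other cell types in the Cbr2 signal was not tested. A pseudogene, Gm11771, is the gene it shares most with, and 12.1% of its 50-base words occur in other genes.

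The promoter window of Cbr2 is shown because it is the gene that fell and because its window holds TGCTGAC, the half-site of MAF factors, on the opposite strand. Capitals mark it (RefSeq, GRCm38.p6, chr11:120731972-120732271, minus strand).
Cbr2: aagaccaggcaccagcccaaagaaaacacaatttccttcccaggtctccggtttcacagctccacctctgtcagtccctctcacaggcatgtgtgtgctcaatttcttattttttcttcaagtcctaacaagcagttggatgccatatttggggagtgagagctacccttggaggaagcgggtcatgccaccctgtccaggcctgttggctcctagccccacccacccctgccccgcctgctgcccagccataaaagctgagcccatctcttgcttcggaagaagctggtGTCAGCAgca
The half-site, searched on both strands, was present for 4 of the 27 genes (Cbr2, Ms4a8a, Retnla and Timd4) and for 5.28% of all genes with a window. The PU.1 motif was not among the letters of this window.

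Mertk and Axl, receptor kinases that bind dying cells through GAS6 and protein S, were abundant in both groups. Mertk had 128 and 128 CPM in ALLO and 167 and 164 CPM in ISO, the tightest replicates of the set, with a log2 change of -0.37 ± 0.18 (edgeR adjusted p = 0.182). Axl had 477 and 557 CPM in ALLO and 649 and 732 CPM in ISO (log2 change -0.42 ± 0.24, edgeR adjusted p = 0.240). Both were lower in the ALLO libraries without passing the test, and both are also expressed by cells of the vessel wall. Maf, the transcription factor c-MAF of resident and IL-10-producing macrophages, which T cells also use, was the gene of the 7 that rose. It had 155 and 123 CPM in ALLO and 55.5 and 36.2 CPM in ISO, 3.03-fold higher (edgeR adjusted p = 0.0141).

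Among 18 other genes of resident macrophages, 17 could be tested, of which 7 rose, 1 fell and 9 did not pass, with a median log2 change of 1.31. Siglec1, the sialic acid receptor CD169, was 10.4-fold higher (6.83-fold without ALLO replicate 1), the scavenger receptor gene Stab1 2.87-fold and the mannose receptor gene Mrc1 6.54-fold. Their edgeR adjusted p values were 0.00594, 0.00785 and 0.0111, and Stab1 lost its call without ISO replicate 1 (edgeR adjusted p = 0.0514). Gas6, the ligand of MERTK and AXL, fell 2.07-fold, at 312 and 359 CPM in ALLO and 712 and 675 CPM in ISO (edgeR adjusted p = 0.0240). Its call was lost without ISO replicate 1, ISO replicate 2 or ALLO replicate 1 (edgeR adjusted p = 0.114, 0.0982 and 0.0584). The resident-associated genes therefore did not all go the same way, in this list or among the 7.

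Of 16 other monocyte genes, 7 rose, 3 fell and 6 did not pass (median log2 change 3.21). The fractalkine receptor gene Cx3cr1 was 43.2-fold higher, the sialophorin gene Spn 19.9-fold (30.8-fold without ISO replicate 1) and the haptoglobin gene Hp 9.26-fold (edgeR adjusted p = 0.00216, 0.00409 and 0.00477). The part of other leukocytes in these rises was not tested. The 3 that fell were Ace, S100a6 and Vcan, which monocytes share with endothelium, smooth muscle or fibroblasts, by 4.44-, 2.16- and 2.17-fold (edgeR adjusted p = 0.00618, 0.0159 and 0.0410). S100a6 lost its call without either ISO library (edgeR adjusted p = 0.0627 and 0.105) and Vcan without ISO replicate 2, ALLO replicate 1 or ALLO replicate 2 (0.184, 0.146 and 0.0710).

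The genes of alternative activation were mixed. Chil3, the chitinase-like protein YM1, had 39.0 and 28.6 CPM in ALLO and 7.13 and 1.09 CPM in ISO, 8.198-fold higher (edgeR adjusted p = 0.0454). The fold was 30.6 when ISO replicate 1 was left out and 4.66 when ISO replicate 2 was, and the call was lost without ALLO replicate 1 or ALLO replicate 2 (edgeR adjusted p = 0.122 and 0.0828). Chil3 shares 26.9% of its 50-base words with other genes, most with Chil4, which had 0 counts in every library. Arg1, the arginase of wound-healing macrophages, had 474 and 653 counts in ALLO and 91 and 4 counts in ISO. The ISO libraries differed 22.04-fold, and the gene did not pass (log2 change 3.27 ± 1.13, edgeR adjusted p = 0.0814), although it did without ISO replicate 1 (108-fold, edgeR adjusted p = 0.000131) and without ISO replicate 2 (4.99-fold, edgeR adjusted p = 0.00586). Retnla, the resistin-like molecule RELM-alpha, had 7.61 and 11.4 CPM in ALLO and 6.72 and 8.69 CPM in ISO. The groups overlapped, with a log2 change of 0.31 ± 0.35 (edgeR adjusted p = 0.5496).

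Of the 5 transcription factors, 4 rose. Irf8, which directs monocyte and dendritic cell fate and is also used by B cells (ENSMUSG00000041515.10, chromosome 8, 120736358 to 120756694), had 184 and 264 CPM in ALLO and 9.18 and 5.61 CPM in ISO. It was 30.3-fold higher (log2 change 4.92 ± 0.38, edgeR adjusted p = 0.00319). Irf5, a factor of inflammatory macrophages, was 17.7-fold higher (99.3 and 172 CPM in ALLO, 10.0 and 5.31 CPM in ISO, edgeR adjusted p = 0.00504). An opposite-strand gene, Tnpo3, shares 14.1% of the exonic bases of Irf5. Spi1, which encodes PU.1, was 16.9-fold higher (119 and 205 CPM in ALLO, 15.1 and 3.98 CPM in ISO, edgeR adjusted p = 0.0138), 40.3-fold when ISO replicate 1 was left out and 10.5-fold when ISO replicate 2 was. All 5 of these factors were higher in ALLO replicate 2 than in ALLO replicate 1. Maf, a factor counted here with the resident-associated genes, went the other way, at 155 and 123 CPM. All 8 MS4A genes and all 5 monocyte and macrophage genes were also higher in ALLO replicate 1. The same held for 8237 of all 16498 genes tested.

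Cebpa, a factor of myeloid and adipocyte differentiation, had 92.4 and 139 CPM in ALLO and 45.3 and 29.2 CPM in ISO. It was 3.10-fold higher (edgeR adjusted p = 0.0187), a call lost without ISO replicate 2 (2.52-fold, edgeR adjusted p = 0.0519). Cebpb, its inflammation-induced relative, had 58.0 and 278 CPM in ALLO and 72.0 and 91.5 CPM in ISO. An opposite-strand gene, Tmem189, shares 20.7% of its exonic bases. ALLO replicate 1 was below both ISO libraries and ALLO replicate 2 above them, and Cebpb did not pass (log2 change 1.04 ± 0.71, edgeR adjusted p = 0.316). Without ALLO replicate 1 it passed as 3.47-fold higher (edgeR adjusted p = 0.0174), and without ALLO replicate 2 its log2 change was -0.49.

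Levels were also set against a list of 11 genes of macrophages in general, all of which rose. Among them were Fcgr1 (36.5-fold), Ctss (53.9-fold, 94.6-fold without ISO replicate 1) and Mpeg1 (53.2-fold, 116-fold when ISO replicate 1 was left out and 33.9-fold when ISO replicate 2 was), with edgeR adjusted p values of 0.00216, 0.00448 and 0.00628. The mean log2 level of the list was 8.66 and 8.74 in ALLO and 5.12 and 3.52 in ISO. On the difference from this mean, 21 of the 36 genes averaged lower in ALLO, against 15478 of all 16498 genes tested. With Csf1r as the measure instead, 17 of the 36 did. The median difference was -0.30 over the 36 genes and -4.37 over all genes tested. These relative levels are given as a description, with no test.

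The 8 MS4A genes ranged from -0.58 to 1.39, and Lyz2, Plac8, Adgre1, Spi1 and Csf2rb lay within 0.07 of 0, at -0.01, 0.03, 0.01, -0.06 and 0.07. Other myeloid genes lay well below 0, with Adgre4 at -1.72, Cebpa at -2.74, Cebpb at -3.74 and Retnla at -4.09. Ly6c2 gained most, standing at -0.22 and -1.06 in ALLO and at -2.90 and -3.21 in ISO. All 7 resident-associated genes were lower in both ALLO libraries than in both ISO libraries, by -2.76 (Maf) to -8.97 (Cbr2). On this scale the same held for 14943 of all 16498 genes tested. The median of the 7 was -4.93, near the -4.37 of all genes tested. Cd163 stood at -4.73 and -6.98 in ALLO and at 0.05 and 1.24 in ISO, and Timd4 at -8.21 and -7.72 in ALLO and at -2.52 and -2.96 in ISO.

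**Figure D5:**
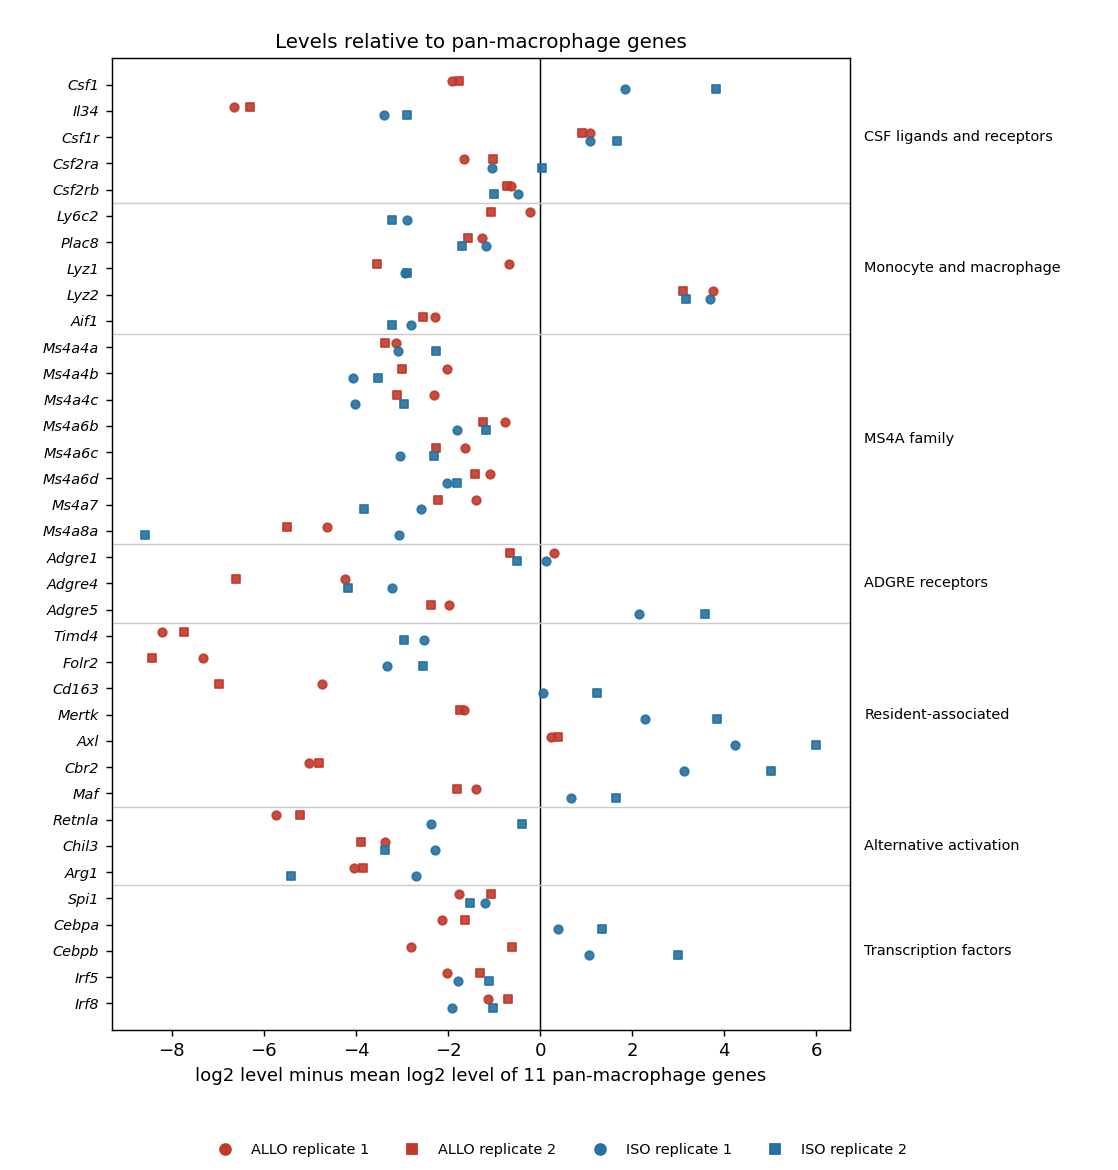
Log2 level of each gene minus the mean log2 level of 11 general macrophage genes, in each library, ALLO drawn above ISO in each row. The resident-associated genes, Csf1, Il34, Adgre5 and Retnla are among those lying further left in ALLO. Ly6c2 shifts most to the right, and Aif1, Ms4a4b, Ms4a6c, Ms4a6d and Ms4a7 also lie right of their ISO points in both ALLO libraries. The MS4A shifts run from -0.58 (Ms4a4a) to 1.39 (Ms4a7).

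Of 10 genes of lipid-loaded macrophages, 6 rose, 1 fell and 3 did not pass (median log2 change 2.59). The integrin gene Itgax was 111-fold higher, the galectin gene Lgals3 16.1-fold and the fatty acid-binding protein gene Fabp5 8.46-fold (edgeR adjusted p = 0.00216, 0.00361 and 0.00451). Dendritic cell markers rose as well, 4 of 6 of them, and the part of dendritic cells or other leukocytes in these values was not tested. The tetraspanin gene Cd9, which smooth muscle also expresses, fell 3.62-fold (edgeR adjusted p = 0.00651).

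Markers of other cell types were also measured, and their part in these results was not tested. Single calls in a list of 6 are near the 18.4% higher and 14.8% lower of all genes tested. Of 6 B cell markers 1 rose (Cr2). Both ALLO libraries nevertheless lay above both ISO libraries for all 6 (37.1% of all genes tested), with a median log2 change of 3.19. The ISO libraries differed widely, by 41.2-fold for Cd79a. Cd79a and Cd79b were the most abundant, and the list had a sum of 111 to 258 CPM in ALLO and 0.664 to 38.7 CPM in ISO, and Cd79b and Ms4a1 had 0 counts in ISO replicate 2. Of 8 neutrophil markers 3 rose, namely Cxcr2 and the scarce Mpo and Elane, which had at most 43 counts in any library. S100a9 and S100a8 were the most abundant and did not pass (edgeR adjusted p = 0.699 and 0.801). The 8 summed to 66.0 to 192 CPM in ALLO and 9.90 to 125 CPM in ISO. Of 6 dendritic cell markers 4 rose, namely Flt3, Xcr1, Clec9a and Siglech. The 6 summed to 115 to 150 CPM in ALLO and 19.3 to 41.7 CPM in ISO, with 0 counts of Flt3, Xcr1 and Siglech in ISO replicate 2. Of 6 mast cell markers 1 rose, the stem cell factor receptor gene Kit, which with Mcpt4 led the list (35.6 to 39.6 CPM in ALLO, 10.2 to 10.6 CPM in ISO). Of 6 fibroblast markers 1 fell (Pi16), while Col1a1 and Dcn were the most abundant and the sum was 8860 to 11988 CPM in ALLO and 4341 to 4792 CPM in ISO. Of 6 endothelial markers 3 fell (Pecam1, Erg and Vwf), with a sum of 681 to 766 CPM in ALLO and 1534 to 1563 CPM in ISO. Of 6 adipocyte markers 1 rose (Cidec), while Fabp4 was the most abundant and the sum was 508 to 604 CPM in ALLO and 404 to 678 CPM in ISO.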

How the data were processed

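Whole aortic graft RNA from mice was sequenced, with 2 ALLO and 2 ISO libraries. The protocols in the labels describe Trizol extraction, DNase digestion and removal of rRNA. The values deposited by the authors are raw counts for each gene. The submitters' processing notes name featureCounts of Subread 1.6.4, R 4.0.3, DESeq2 1.30.0 and the build mm10. Aligner and strand setting were not given in the sources used here. Names came from GENCODE M21 (54723 of 54752 IDs).

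Members and gene lists were chosen with earlier results of these data known. All 36 genes are named, and from each further list up to 3 genes per direction with the smallest adjusted p. Counts were filtered with filterByExpr (minimum count 10), scaled by TMM and tested with edgeR 4.0.16 (quasi-likelihood, group as the only term) over all 16498 genes, with Benjamini-Hochberg adjustment. The fit was tested on simulated data. Alternatives used DESeq2 1.42.0 and limma 3.58.1 under R 4.3.3. Standard errors were derived as the absolute log2 change divided by the square root of the F statistic of the edgeR test. Relative levels used a prior count of 0.5. Of counts from 1 to 20, 68.0% to 74.6% were even, the pattern of read pairs counted by both mates, so 6 counts served as the floor for a library at 0; the floor covers counting error only. No pair of replicates agreed within sampling noise (chi-square over degrees of freedom 139 in ALLO and 41.6 in ISO). Overlap was the share of exonic bases in the deposited table, and 24 of the 36 genes had none.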

Additional observations from a re-analysis of the deposited data

How the results depend on the processing

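Over 13 alternatives, 23 of the 36 genes kept their direction and their side of the threshold in every one. The number of genes called was 3603 to 4651 with 1 library left out, against 5469 with all. Of the 36, 20 to 25 rose and 1 to 2 fell with 1 library left out. With no filter, 2 fell (Cbr2 and Cd163), likewise with the DESeq2 Wald test and with a replicate block, and 3 with limma-voom, which added Adgre5. Direction reversed for 3 genes, none of them called with all libraries: Timd4 (log2 change 0.19 without ISO replicate 1, range -1.87 to 0.19 with 1 library left out), Cebpb (-0.49 without ALLO replicate 2, range -0.49 to 1.79) and Retnla (-0.015 without ALLO replicate 2, range -0.015 to 0.60). The cause was not tested. With the replicate number as a block, 24 of the 36 rose and 4873 genes were called, and Adgre4, Arg1 and Cd163 passed (edgeR adjusted p = 0.00612, 0.0343 and 0.0229). Whether same-numbered libraries belong together is not given in the labels. Their deviations correlated at 0.06 over all genes tested, and a single such value cannot show whether they share a batch. Scaling by library size alone moved the median of all genes to 0.22 and gave 65.5% of calls higher, against 55.4%, and left the counts for the 36 genes at 22 and 1, and Vcan lost its call (edgeR adjusted p = 0.0765). Adgre4 passed with the DESeq2 Wald test (adjusted p = 0.0160) and Arg1 with no filter and with limma-voom (adjusted p = 0.0241 and 0.0250). Lyz1 lost its call with limma-voom (adjusted p = 0.0700) and Chil3 when a mean of at least 10 counts was required (edgeR adjusted p = 0.0554). Timd4, Folr2 and Il34 had at most 119 counts in any library.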
